A study of Mus musculus with 14 samples.

Results

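The MHC class II antigen presentation genes are 8 mouse genes taken by name: the transactivator gene Ciita, the chain genes H2-Ab1, H2-Aa and H2-Eb1, the invariant chain gene Cd74, and the peptide-exchange genes H2-DMa, H2-DMb1 and H2-DMb2. They were followed as 8 of the 21883 protein-coding genes of the RefSeq annotation (GRCm38.p6, the assembly of mm10), over the gene span plus 10 kb on each side. The series is a chromatin immunoprecipitation sequencing (ChIP-seq) study of lineage-depleted bone marrow progenitors from C57BL/6 mice. The KO cells carry the UTX KO genotype, so they lack the histone demethylase UTX (gene Kdm6a), and the WT cells are UTX WT. The sources used here do not give how the deletion was made, the age or sex of the mice, or whether numbered libraries came from separate animals, so every p-value measures the spread between libraries only. H3K27ac, a mark of active promoters and enhancers, was profiled in 2 KO and 2 WT libraries. H3K27me3, the Polycomb mark that UTX can remove, was profiled in another 2 KO and 2 WT libraries. UTX itself was profiled in 2 WT libraries, and 1 WT library of non-specific IgG, titled as a BCOR control, served as background.

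MHC class II molecules display peptides from ingested proteins to CD4+ T cells. In mice the I-A molecule is the pair encoded by H2-Aa and H2-Ab1, and H2-Eb1 encodes the beta chain of I-E, which C57BL/6 mice do not display because their H2-Ea gene is defective. The invariant chain Cd74 guards the groove during transport, and H2-DM then exchanges its remnant for peptide. CIITA does not bind DNA: it docks on RFX, CREB and NF-Y proteins that sit on the X and Y boxes of class II promoters. B cells, dendritic cells and macrophages carry high class II levels, while most other blood cells do not.

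The deposited files list islands, stretches of enriched reads called in each library, with the reads in each. Levels are given as rpm, the reads of an island per 1000000 reads in all islands of its library. H3K27ac libraries held 9330823 to 15256696 island reads, H3K27me3 libraries 2347442 to 2743508, the UTX libraries 816567 and 1834418, and the IgG library 154029. A place with no island has no value in the files. It can still hold reads, because the smallest H3K27ac islands listed hold 18 to 32 reads. In a bulk sample, a mark in fewer cells and less of the mark per cell cannot be told apart. All 8 genes of a progenitor list, Kit, Cd34 and Mpo among them, had an H3K27ac region tested, as did 9 of 10 B cell, 7 of 9 dendritic cell and 5 of 8 monocyte and macrophage genes, so presence alone does not set the labelled cell type apart.

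Windows of the RefSeq promoter table, from 250 bases before to 50 after an annotated start, were read for 5 of the 8 genes. All 5 genes lie on chromosome 17. Cd74, on another chromosome, was left out of this reading, and Ciita and H2-Ab1 had no entry. The windows of the 5 genes are shown because the class II X and Y boxes can be looked for in them and because they differ in islands. Capitals mark ATTGG (the Y box core, a reversed CCAAT box) or its reverse complement, AACNGATG (the 3′ part of an X box) and TGACGTCA (a full CREB site), searched on both strands. These motifs overlapped nowhere in the windows shown. They were chosen after the sequences had been read.
H2-Aa: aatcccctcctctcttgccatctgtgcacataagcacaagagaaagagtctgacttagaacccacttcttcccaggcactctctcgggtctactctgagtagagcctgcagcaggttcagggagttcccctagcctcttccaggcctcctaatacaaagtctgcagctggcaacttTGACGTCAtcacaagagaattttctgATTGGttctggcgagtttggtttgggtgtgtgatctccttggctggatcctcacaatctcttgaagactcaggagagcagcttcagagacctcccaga
H2-Eb1: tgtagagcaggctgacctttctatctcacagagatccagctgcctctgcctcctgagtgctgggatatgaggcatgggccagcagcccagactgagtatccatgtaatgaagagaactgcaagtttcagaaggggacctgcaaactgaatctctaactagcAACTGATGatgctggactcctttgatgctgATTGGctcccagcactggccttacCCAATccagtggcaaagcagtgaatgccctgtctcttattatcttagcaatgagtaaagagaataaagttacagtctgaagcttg
H2-DMb1: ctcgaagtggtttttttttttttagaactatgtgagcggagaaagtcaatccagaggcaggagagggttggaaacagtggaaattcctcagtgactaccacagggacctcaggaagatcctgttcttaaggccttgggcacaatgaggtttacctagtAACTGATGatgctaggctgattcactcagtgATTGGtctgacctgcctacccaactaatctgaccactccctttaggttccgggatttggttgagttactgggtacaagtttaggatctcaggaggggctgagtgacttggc
H2-DMb2: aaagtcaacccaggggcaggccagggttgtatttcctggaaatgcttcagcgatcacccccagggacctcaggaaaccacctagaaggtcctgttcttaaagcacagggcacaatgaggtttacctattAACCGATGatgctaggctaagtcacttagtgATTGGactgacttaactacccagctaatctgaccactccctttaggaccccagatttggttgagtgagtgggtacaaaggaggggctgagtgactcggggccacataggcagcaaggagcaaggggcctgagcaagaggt
H2-DMa: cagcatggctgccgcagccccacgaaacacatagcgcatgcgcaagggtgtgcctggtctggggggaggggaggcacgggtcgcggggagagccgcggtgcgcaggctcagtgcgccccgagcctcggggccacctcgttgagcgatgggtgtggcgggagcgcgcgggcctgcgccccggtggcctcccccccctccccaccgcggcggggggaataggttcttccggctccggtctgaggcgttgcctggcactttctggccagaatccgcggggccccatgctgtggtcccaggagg
The H2-Aa window lies at chr17:34287774-34288073 on the minus strand. The others lie on the plus strand, H2-Eb1 at chr17:34305617-34305916, H2-DMb1 at chr17:34152941-34153240, H2-DMb2 at chr17:34144999-34145298 and the first H2-DMa start at chr17:34122582-34122881.

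In H2-Eb1, H2-DMb1 and H2-DMb2 the X box part stood 22, 23 and 23 bases before the Y box core, on the coding strand. Relative to the annotated start the X box part began at -89, -92 and -121, and the Y box core at -59, -61 and -90. The H2-Aa window held TGACGTCA at -74, 18 bases before its ATTGG at -48. The window of the first H2-DMa start held none of these motifs. Its G and C content was 73%, with 29 CG dinucleotides, against medians of 52.7% and 7 over all windows. The window of a second H2-DMa start, at chr17:34125518 and not printed, differed from it. That window held ATTGG at -198, a G and C content of 39% and 0 CG dinucleotides. ATTGG alone was in 37.4% of all 32851 windows, AACNGATG in 2.32% and TGACGTCA in 1.79%. The pair AACNGATG and ATTGG, on 1 strand and 10 to 30 bases apart, was found in 7 windows (0.0213%). These belonged to H2-DMb2, H2-DMb1, H2-Eb1, the neighbouring gene H2-Eb2, BC051142, H2-M10.4 and Gm35697, the last 2 with the pair on the opposite strand.

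The printed windows differed in their islands. The first H2-DMa start lies 225 bases from a start of the neighbouring gene Brd2. Its window met an H3K27ac island in both KO and both WT libraries and a UTX island in both WT libraries. The window of the second H2-DMa start, not printed, met an H3K27ac island in both KO and both WT libraries. It met a UTX island in 1 WT library. The H2-Aa and H2-DMb1 windows met an H3K27ac island in all 4 libraries and no UTX island. The H2-DMb2 window met an H3K27ac island in 1 KO library and in neither WT library. The H2-Eb1 window met one in neither KO library and in 1 WT library. No H3K27me3 or IgG island met any of them.

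Over the gene span plus 10 kb, all 8 genes had an H3K27ac island in all 4 libraries, as did 61.7% of all protein-coding genes. Islands shared by neighbours were counted once: 12 and 10 distinct H3K27ac islands in the KO libraries and 11 and 12 in the WT libraries. UTX islands of both WT libraries met 3 of the 8 windows, those of the H2-DM genes, against 46.2% of all windows, and those of either library met 4 (H2-Ab1 added), against 62.8%. H3K27me3 islands of any library met 2 of 8, Ciita and H2-Ab1, against 47.5%, and 0 of 8 had one in all 4 libraries, against 28.4%. The IgG library had an island in 1 of the 8 windows, that of H2-Eb1, against 5.46%.

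**Figure D1:**
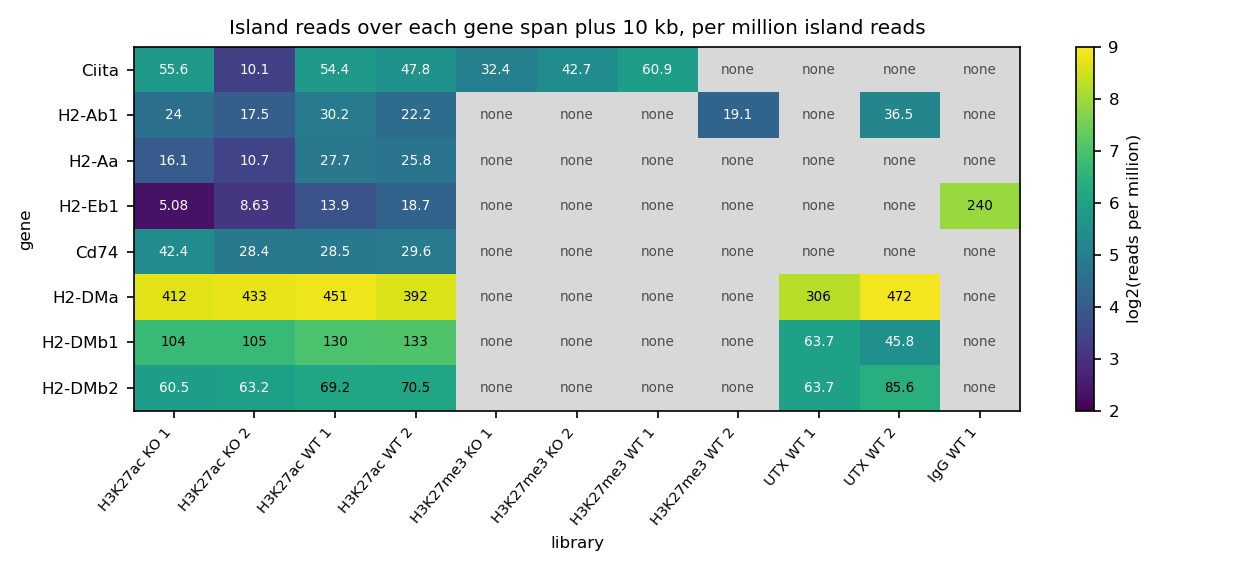
Heat map of island reads over each gene span plus 10 kb, in rpm, for 8 genes (rows) and 11 libraries (columns, KO before WT for each histone mark); colour is log2 of the printed value and grey means no island. H2-DMa has the highest H3K27ac and UTX values, H2-Eb1 the lowest H3K27ac values, and Ciita alone has H3K27me3 islands in more than 1 library.

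UTX islands of both WT libraries lay over H2-DMa and H2-DMb2. The H2-DMb1 span held none, and its window was met only by the island at H2-DMb2. The broadest UTX region, chr17:34117201-34125400, held 198 and 618 reads (242 and 337 rpm) in the UTX libraries and no IgG island. It overlapped the lower part of H2-DMa and Brd2, a chromatin reader gene that runs the other way, and the table places one Brd2 start 225 bases from the first H2-DMa start. Reads there therefore cannot be assigned to one of the 2 genes. A second UTX region, chr17:34142601-34144200 at H2-DMb2, held 52 and 84 reads (63.7 and 45.8 rpm) in the UTX libraries, again with no IgG island. The smallest IgG island listed was at 117 rpm, above both levels, so a missing IgG island cannot tell this region from background. Replicate 2, the deeper UTX library, had 3 further islands that replicate 1 lacked. They lay within H2-DMa at chr17:34127401-34129400 (49.6 rpm) and chr17:34135201-34137000 (39.8 rpm), and on H2-Ab1 at chr17:34263801-34265200 (67 reads, 36.5 rpm). Ciita, H2-Aa, H2-Eb1 and Cd74 had no UTX island in either library. H2-DMa ranked 112th of 21883 windows by mean UTX level over whole windows, which are not adjusted for length.

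**Figure D2:**
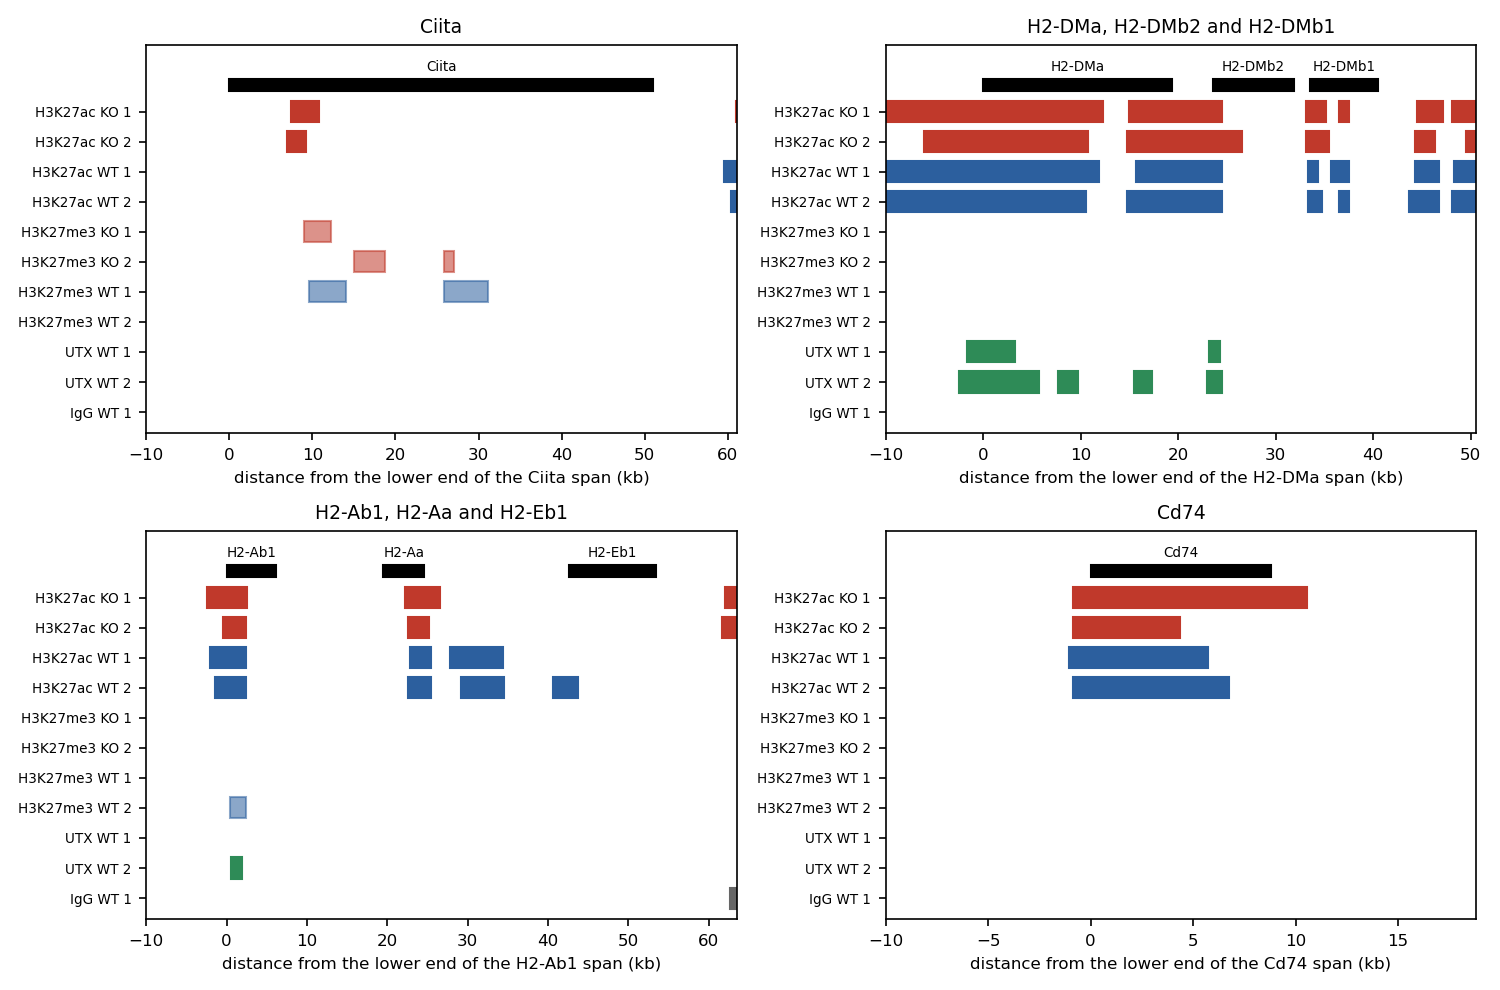
Maps of the islands (boxes) of the 11 libraries (rows, KO above WT for each histone mark) over Ciita, the H2-DM genes, H2-Ab1 to H2-Eb1, and Cd74, in kb from the lower-coordinate end of the named gene span; black bars are gene spans. The H3K27ac boxes inside Ciita are in both KO libraries, those between H2-Aa and H2-Eb1 in both WT libraries, and the UTX boxes of both libraries at H2-DMa and H2-DMb2.

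H3K27ac in the windows of the class II genes did not pass the test between KO and WT in any tested region. The 4 libraries gave 14 merged regions over the 8 windows. Of these, 9 had an island in all 4 libraries and entered the test, in the window of every gene but H2-Eb1. The only tested region in the Ciita window lay off the gene, over Dexi and Clec16a, so Ciita itself was not tested. The tested regions beyond H2-DMb1 met no annotated gene. Of the 9 tested regions, edgeR's quasi-likelihood test with Benjamini-Hochberg adjustment over 18820 regions called 0. The background was 26% called (12% higher and 14% lower in KO). DESeq2 also called 0, and 3 of the 9 had an unadjusted edgeR p below 0.05, as did 7223 of all 18820 regions. The median log2 fold change, KO over WT, was -0.19 over the 9 regions and 0.00 over all tested regions, and 7 of the 9 values were below 0 (6 without TMM scaling, 5 as reads per covered length). Both KO rpm lay below both WT rpm in 3 of the 9 regions (24.2% of all tested regions) and above them in 1 (41.7%). Without TMM scaling all tested regions shifted to a median of 0.12, and all log2 fold changes here are after TMM.

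**Figure D3:**
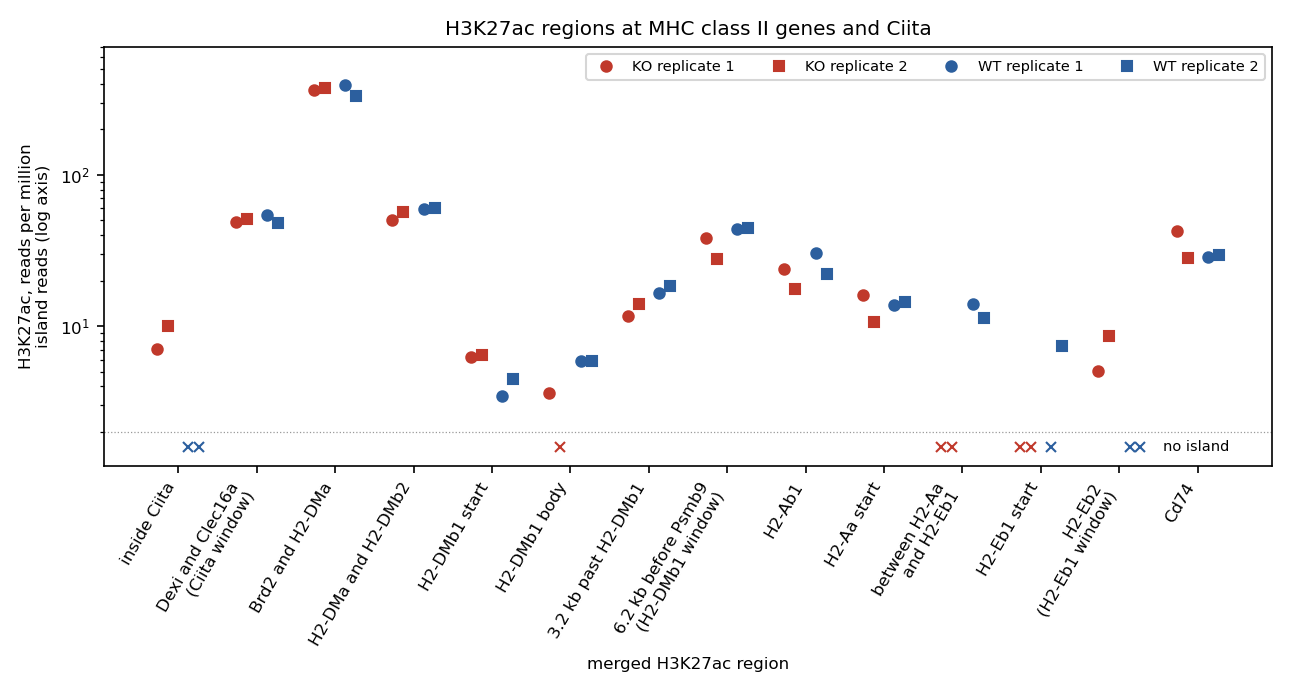
H3K27ac level of the 14 merged regions (x axis) in each library (KO left of WT), in rpm on a log axis; crosses mark libraries with no island. KO and WT points overlap or lie close in the 9 tested regions, while the regions inside Ciita, between H2-Aa and H2-Eb1, and at H2-Eb2 have islands in the libraries of 1 genotype.

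Ciita, the master switch of the class II program, had an H3K27ac island within its span in KO and not in WT. The region chr16:10487001-10490800, 3.8 kb wide and 7.0 kb from the lower-coordinate end of the gene, held 104 and 112 reads (7.04 and 10.1 rpm) in the KO libraries, and neither WT library had an island there. In KO replicate 1 the island had 30.6 reads per kb, below the lower quartile of 39.3 over all islands of that library. In KO replicate 2 it had 50.9, above the lower quartile of 36.9. Over the whole mark, 5.18% of 34766 merged regions had an island in both KO and neither WT library. The count over a missing island is not known, so the region has no fold change and was not tested. In an alternative with missing islands set to 0 reads, 3 regions at these genes were called (29.9% of all regions), but each had islands in 1 genotype alone, so those calls restate presence and add nothing to it. No UTX or IgG island met it.

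The other H3K27ac region in the Ciita window, chr16:10539601-10548600, lay over the neighbouring genes Dexi and Clec16a. It held 48.6 and 51.0 rpm in KO and 54.4 and 47.8 rpm in WT, with overlapping groups (log2 fold change -0.15, SE 0.114, edgeR adjusted p = 0.378). Its islands straddled the edge of the Ciita window: the one of KO replicate 2 began 337 bp outside and was not counted for Ciita. For this reason the whole Ciita window read 55.6 and 10.1 rpm in KO and 54.4 and 47.8 rpm in WT.

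At H2-Ab1, the I-A beta chain gene, an H3K27ac region at chr17:34260801-34265800 covered the lower end of the gene, with 24.0 and 17.5 rpm in KO and 30.2 and 22.2 rpm in WT. The groups overlapped (log2 fold change -0.44, SE 0.233, edgeR adjusted p = 0.218). At H2-Aa, the I-A alpha chain gene, the region over the promoter printed above, chr17:34285401-34289800, held 16.1 and 10.7 rpm in KO and 13.7 and 14.6 rpm in WT. One KO library lay above and the other below both WT libraries (log2 fold change -0.19, SE 0.269, adjusted p = 0.644 by edgeR).

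Upstream of H2-Aa, both WT libraries had an island where neither KO library had one. This region, chr17:34291001-34297800, is 6.8 kb wide, begins 3.2 kb from the H2-Aa start and meets no annotated gene. It lies between H2-Aa and H2-Eb1, whose windows share it. It held no island in KO and 130 and 172 reads (13.9 and 11.3 rpm) in WT. Both WT islands were of low density, 19.7 and 31.9 reads per kb. The lower quartiles over all islands of these libraries were 29.4 and 41.9 reads per kb. Across the mark, 9.28% of merged regions had an island in both WT and neither KO library. As at Ciita, no fold change can be given.

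H2-Eb1 had the lowest H3K27ac sum of the 8 windows, not adjusted for length, with 5.08 and 8.63 rpm in KO and 13.9 and 18.7 rpm in WT. Its own start, at chr17:34303801-34307000, had an island in WT replicate 2 alone (113 reads, 7.41 rpm). The KO reads of its window came from a different place, chr17:34324801-34327000 on H2-Eb2, with 75 and 96 reads (5.08 and 8.63 rpm) in the KO libraries and no island in the WT libraries. The IgG library had an island over the same place, with 37 reads (240.2 rpm in that shallow library). The part of background signal in it was not tested.

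Cd74 had 1 H3K27ac region, chr18:60802801-60814400, over the gene and the adjoining end of Tcof1. It held 42.4 and 28.4 rpm in KO and 28.5 and 29.6 rpm in WT. KO replicate 1 stood above the other 3 libraries, and its island spanned 11.4 kb against 5.2 kb in KO replicate 2 and 6.8 and 7.6 kb in WT. The difference did not pass (log2 fold change 0.17, SE 0.219, edgeR adjusted p = 0.598). Without KO replicate 1 the value was -0.16.

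The H2-DM genes encode the peptide editor of class II loading, and the region with the highest H3K27ac level lay at H2-DMa, where it is shared with Brd2. The region over Brd2 and the lower part of H2-DMa, chr17:34107801-34132000, held 361 and 376 rpm in KO and 391 and 332 rpm in WT (log2 fold change -0.08, SE 0.0801, adjusted p = 0.482 by edgeR), a value that was 0.03 without TMM. Per kb of island it held 16.0 and 22.4 rpm in KO and 17.3 and 14.8 rpm in WT, the highest density of the 14 regions in all 4 libraries. The second region, chr17:34134401-34146200, spanned the upper part of H2-DMa and the lower end of H2-DMb2. Its level was 50.6 and 56.7 rpm in KO and 59.9 and 60.1 rpm in WT, so the groups did not overlap, but it did not pass (-0.28, SE 0.112, edgeR adjusted p = 0.116).

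Along H2-DMb1 no region passed the test. Its start, chr17:34152801-34155200, had 6.30 and 6.47 rpm in KO and 3.43 and 4.46 rpm in WT (log2 fold change 0.56, SE 0.284, edgeR adjusted p = 0.197). The islands there were wider in KO, 2.0 and 2.4 kb against 1.0 and 1.4 kb in WT, and per covered length the value was -0.28. An island within the gene, chr17:34155401-34157200, was present in KO replicate 1 (3.59 rpm) and in both WT libraries (5.89 and 5.90 rpm). Beyond the gene, chr17:34163401-34166800 held 11.7 and 14.03 rpm in KO and 16.6 and 18.5 rpm in WT (-0.58, SE 0.224, edgeR adjusted p = 0.105). H2-DMb1 and H2-DMb2 are close copies of each other, and the sources used here do not say how reads that fit both were placed, so the split of reads between them is uncertain.

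The tested region with the smallest adjusted p lay towards the immunoproteasome gene Psmb9. The region chr17:34167801-34175800, 6.2 kb from Psmb9, held 38.5 and 27.8 rpm in KO and 44.2 and 44.4 rpm in WT (log2 fold change -0.53, SE 0.185, edgeR adjusted p = 0.0786). Without KO replicate 1 it was called (-0.80, edgeR adjusted p = 0.0237, with 17.3% of all regions called), and without KO replicate 2 it was not (-0.30, edgeR adjusted p = 0.313). Per covered length its value was 0.27, with islands covering 6.4 and 3.2 kb in KO and 7.8 and 8.0 kb in WT.

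Summed over whole windows, KO lay below WT without overlap at 4 of the 8 genes and above it at 0, while 30.3% and 37.7% of all windows with islands in all 4 libraries did so. The 4 were H2-Aa and H2-Eb1, which share the low-density WT region between them, and H2-DMb1 and H2-DMb2, which share 3 regions. The H2-DMb1 window read 104 and 105 rpm in KO and 130.0 and 133 rpm in WT. It passed when whole windows were tested over all genes (log2 fold change -0.37, SE 0.088, edgeR adjusted p = 0.0489, with 22.7% of windows called). Most reads of this window lay off the gene. The island at H2-DMa and H2-DMb2 held 50.6 and 56.7 rpm in KO and 59.9 and 60.1 rpm in WT. That towards Psmb9 held 32.3 and 27.8 rpm in KO and 44.2 and 44.4 rpm in WT. On the gene, the start was higher in KO (6.30 and 6.47 rpm against 3.43 and 4.46 rpm). The island within it was lower in KO, as given above. H2-Aa (-1.03, SE 0.256, adjusted p = 0.0544 by edgeR) and H2-Eb1 (-1.31, SE 0.345, 0.0615) fell short of the threshold, and in H2-Eb1 the KO and WT reads came from different places as given above. With 2 KO and 2 WT libraries, an exact permutation test on a single window cannot reach 0.05.

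H3K27me3 was sparse at the class II genes, and no region entered the test. Ciita was the main carrier. Its window held 32.4 and 42.7 rpm in KO and 60.9 rpm in WT replicate 1, and WT replicate 2 had no island there. These islands were small, with 38 to 106 reads each. At chr16:10489001-10494000 the WT replicate 1 island had 13.9 reads per kb, below the lower quartile of 16.25 over all islands of that library. The others lay above the lower quartiles of their libraries. The islands did not line up: chr16:10489001-10494000 was marked in KO replicate 1 and WT replicate 1, chr16:10495001-10498800 in KO replicate 2 alone, and chr16:10505801-10511200 in KO replicate 2 and WT replicate 1. The H3K27ac island that KO replicate 1 had inside Ciita overlapped the H3K27me3 island of the KO replicate 1 library of that mark by 1.8 kb and that of WT replicate 1 by 1.2 kb. The one of KO replicate 2 overlapped the H3K27me3 island of KO replicate 1 by 0.2 kb and none of KO replicate 2. In bulk cells this does not show whether both marks sat in the same cells. H2-Ab1 had an island in WT replicate 2 alone (chr17:34263601-34265600, 47 reads, 19.1 rpm), over the stretch where UTX replicate 2 also had one. Of the 4 H3K27me3 regions, 0 had an island in both KO and neither WT library (1.86% of all merged regions) and 0 in both WT and neither KO library (6.5%). The other 6 genes had no H3K27me3 island in any KO or WT library. Over the whole mark, 1 of 6771 tested regions was called by edgeR (0.0148%) and 32 by DESeq2.

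Genes around the class II pathway were read from lists of related genes and markers, each by the strongest tested H3K27ac region on the gene span. Of 66 list genes with a tested region, 28 were called, 17 higher and 11 lower in KO. Of all tested regions 26% were called, 12% higher and 14% lower. That share covers every tested region, not the strongest on each gene. Of the 28, only 11 kept their call without each of the 4 libraries in turn, and only 3 did so per covered length, Irf4 and Pou2af1 among them.

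Regulators of Ciita rose in 4 of 12 regions and fell in 0 (median log2 fold change 0.21), against 12% and 14% of all tested regions. Irf4, an interferon regulatory factor of B and dendritic cells, had 33.1 and 47.7 rpm in KO and 6.32 and 8.39 rpm in WT (2.32, SE 0.263, edgeR adjusted p = 0.00137). Bach2, a repressor in B cell development, had 139.8 and 175 rpm in KO and 78.1 and 65.0 rpm in WT (1.03, SE 0.126, edgeR adjusted p = 0.00176), with 0.23 per covered length. Both kept their calls without each library. Spi1, encoding PU.1 (0.40, edgeR adjusted p = 0.01), lost its call without WT replicate 1, and Irf1 (0.53, 0.0176) without WT replicate 1 or KO replicate 1. Irf8 (-0.02), Ifngr1 (0.15) and Prdm1, a repressor of Ciita in plasma cells (0.57, adjusted p = 0.172), did not pass. In H3K27me3, 4 genes of this list had a tested region (Irf4, Irf8, Prdm1 and Bach2), and edgeR called 0.

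The DNA-binding partners of CIITA did not pass in H3K27ac, with 0 of 7 regions called by edgeR (median -0.03). Their log2 fold changes ran from -0.23 at Nfya to 0.32 at Rfxap, and Rfx5 was at -0.07. Among other class II and MHC genes, 1 of 6 regions rose and 2 fell (median -0.13). H2-Oa, 1 chain of the H2-DM inhibitor, fell by 0.40 on the log2 scale (42.3 and 42.7 rpm in KO, 52.4 and 51.1 rpm in WT, edgeR adjusted p = 0.0418). The strongest tested region on H2-Eb2, a different place from the KO islands given above, fell by 0.98 (3.59 and 4.23 rpm in KO, 8.47 and 5.90 rpm in WT, edgeR adjusted p = 0.0468). The class I chain gene H2-D1 rose (0.37, edgeR adjusted p = 0.0283), while its partner B2m (-0.16) did not pass. H2-Oa, H2-Eb2 and H2-D1 each lost their call without any 1 of the 4 libraries and with DESeq2.

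Of 4 regions of class I loading genes, that of Tap2, a peptide transporter chain, fell (-0.34, edgeR adjusted p = 0.0235), with the call kept without WT replicate 2 only. The region shared by Tap1, Psmb8 and Psmb9 (0.13) and that of the class I transactivator Nlrc5 (-0.02) did not pass. In class II processing, Ctss, the protease that trims the invariant chain, fell, with 48.8 and 55.8 rpm in KO and 75.6 and 93.9 rpm in WT (-0.82, SE 0.149, edgeR adjusted p = 0.00824). It kept its call without each library but not per covered length (-0.84, adjusted p = 0.0854). Marchf1, a ligase that removes class II from the surface, rose (0.79, edgeR adjusted p = 0.0261), with its call lost without any 1 of the 4 libraries. Ifi30 (-0.10) and Ctsl (0.32) did not pass, nor did the co-stimulation genes Cd80 (0.40), Cd86 (0.48) and Cd40 (0.17).

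**Figure D4:**
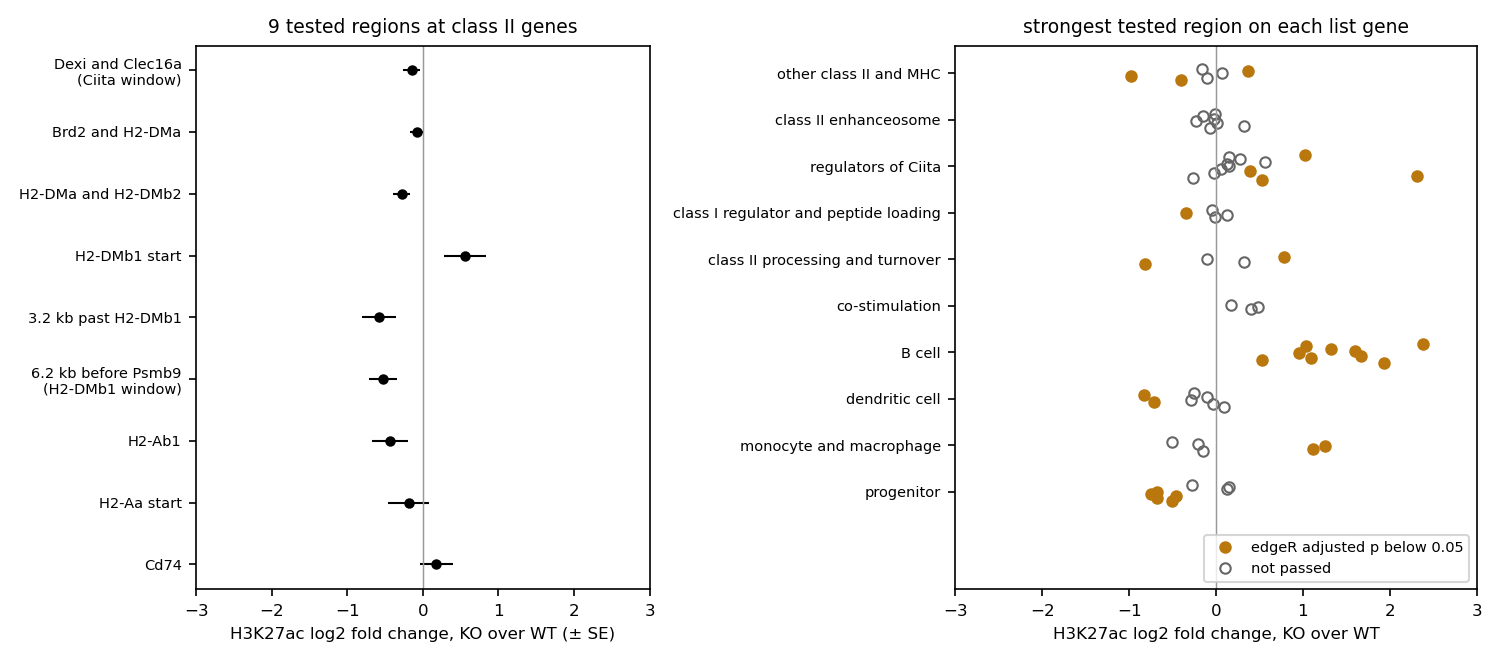
H3K27ac log2 fold change, KO over WT. Left, the 9 tested regions in the windows of the class II genes, with their SE. Right, the strongest tested region on each gene of the 10 lists, filled where the edgeR adjusted p is below 0.05. The class II regions lie between -0.58 and 0.56, while all 9 B cell regions are filled and lie between 0.53 and 2.38.

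Markers of cells that carry class II were set beside these values. All 9 tested B cell regions rose in H3K27ac (median 1.32), against 12% of all tested regions. Their summed level was 516 and 710 rpm in KO and 257 and 249.6 rpm in WT. Pou2af1, a B cell coactivator, had 47.1 and 81.6 rpm in KO and 9.97 and 12.5 rpm in WT (2.38, SE 0.283, edgeR adjusted p = 0.00159), and the B cell factor gene Pax5 was at 1.67. The receptor chain genes Cd79a and Cd79b were at 0.53 and 1.09, and the early B cell factor gene Ebf1 at 0.96. Pax5, Blk, Cd22, Blnk and Pou2af1 were among those that kept their call without each library. Of 7 dendritic cell regions Flt3 (-0.83) and Clec9a (-0.72) fell, Zbtb46 (0.09) and Itgax (-0.03) did not pass, and Batf3 and Siglech had no H3K27ac island in any library. That list summed to 479 and 467 rpm in KO and 532 and 554 rpm in WT. Of 5 monocyte and macrophage regions Adgre1 (1.25) and Cd14 (1.12) rose, Csf1r (-0.15) did not pass, and Ly6c2 had no H3K27ac island, with sums of 222 and 243 rpm in KO and 215 and 262 rpm in WT. Of 8 progenitor regions Kit, Cd34, Meis1, Mecom and Gata2 fell (-0.46 to -0.75), while Mpo (0.12), Myb (0.15) and Hlf (-0.28) did not pass. The list summed to 1921 and 1748 rpm in KO and 1821 and 1817 rpm in WT. With islands in at least 2 libraries, the markers Ebf1, Blk, Clec9a, Cd14, Cd34, Meis1, Mecom and Gata2 lost their calls. The part of a shift in cell types in the class II and list values was not tested.

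The genes whose windows were most like that of Ciita were found by the Euclidean distance of log2(rpm + 0.5) over the 10 H3K27ac, H3K27me3 and UTX libraries, leaving out genes that share an island with it. They were the glycosyltransferase gene B3gnt7 (distance 2.54), the carboxypeptidase-like gene Cpvl (2.69), Tmem273 (2.83), the Toll-like receptor gene Tlr8 (3.04) and the aldehyde oxidase gene Aox3 (3.51). Each of the 5 had H3K27ac islands in all 4 libraries, H3K27me3 islands in both KO libraries and WT replicate 1 but not in WT replicate 2, and no UTX island. This shared pattern follows from the choice, because the distance was taken over these same libraries. B3gnt7, for example, held 36.2 and 32.8 rpm of H3K27ac in KO and 28.8 and 31.1 rpm in WT. The distance was set in part by the Dexi and Clec16a island at the edge of the Ciita window.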

How the data were processed

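ChIP-seq of H3K27ac and H3K27me3 (2 KO and 2 WT libraries each), UTX (2 WT) and IgG (1 WT) was used. 3 further samples (2 inputs and a second IgG) were not analysed here. Per the submitters' processing notes, the authors called islands with SICER on mm10. The aligner, SICER version, gap, threshold and control are not given in the sources used here. The deposited files hold counts, whole reads per island, called per library. Island widths were multiples of 200 bp, and the closest islands were 800 bp apart in histone files and 400 bp apart in UTX and IgG files. Only reads in islands on placed chromosomes are known, which limits every value to what was called.

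For each mark, islands that overlapped between libraries were joined into regions. Where all 4 libraries had an island, KO was compared with WT by edgeR (version 4.0.16, R version 4.3.3), using its quasi-likelihood F test after TMM, which is two-sided, with p-values adjusted over all regions after Benjamini and Hochberg and a threshold of 0.05. SE was taken from the F statistic. The script was tested on simulated counts. Of simulated 2-fold changes it called 66% in H3K27ac and 15% in H3K27me3, and of 4-fold changes 100% and 85%. A region that was not called can therefore still differ, above all in H3K27me3. DESeq2 1.42.0, other scalings, filters, windows and left-out libraries were alternatives. Named genes were all 8 genes, list genes that were called, with list examples that were not called given as values, and the 5 genes most like Ciita. The genes and lists were chosen with earlier results of these data known, and several B cell and progenitor results were among them, so they are no independent support. Values of some list genes are not reported here.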

Additional observations from a re-analysis of the deposited data

Results flagged for a closer look

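The IgG library, which was no arm of the KO and WT comparisons and served as background and as a filter in 1 alternative, had 1 island in these windows, at chr17:34325801-34327800 in the window of H2-Eb1. It held 37 reads and overlapped the H3K27ac islands that both KO libraries and neither WT library had at H2-Eb2. Its part in those islands was not tested.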

How the results depend on the processing

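The count of 0 called H3K27ac regions in the windows of the 8 genes became 1 with whole gene windows. That was the H2-DMb1 window, with most of its reads off the gene. The count became 3 with islands in at least 2 libraries (inside Ciita, between H2-Aa and H2-Eb1, and at H2-Eb2). With the replicate block the count was 1 (the region near Psmb9, log2 fold change -0.55, edgeR adjusted p = 0.0408, with 29.2% of all regions called). It ranged from 0 to 1 when each library was left out. The 3 regions have islands in 1 genotype, and their calls restate that, since missing islands were set to 0. Other alternatives (no TMM, DESeq2, at least 50 reads, reads per covered length, stricter islands, windows of 2 kb, most of the region in the window and, added after seeing the data, no IgG island) gave 0. For H3K27me3 the count at the genes was 0 throughout, with at most 2 regions tested. WT and KO libraries share replicate numbers, but same-numbered libraries did not deviate together (correlation 0.0456 for H3K27ac and -0.0517 for H3K27me3 over regions). UTX islands met 2 to 4 genes.

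Over all regions, 4889 H3K27ac calls (46.2% higher) became 338 (23.4%) per covered length, 8514 with islands in at least 2 libraries, 3064 with gene windows, and 2596 to 3265 without 1 library. Without TMM 61.2% were higher. For H3K27me3, 1 call became 32 with DESeq2, 10 without TMM, 4 per covered length, 2 with stricter islands and 0 to 7 without 1 library, and it was 0 with the replicate block, with gene windows, with islands in at least 2 libraries and without IgG islands.

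Per covered length 6 called list genes changed sign without passing: H2-Eb2 (0.44), H2-D1 (-0.0151), Irf1 (-0.0391), Marchf1 (-0.19), Ebf1 (-0.62) and Cd14 (-0.16). The cause was not tested. Depth limits presence in the shallow libraries: the smallest IgG island listed held 18 reads, or 117 rpm.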
